A study of Mus musculus with 16 samples.

Results

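The small intestinal epithelium takes up digested protein through a small set of plasma membrane transporters, and 10 of their genes were followed here across age and region in the mouse. The genes were chosen by name: Slc15a1, Slc6a19, Slc6a20a, Slc7a9, Slc3a1, Slc1a1, Slc6a14 and Slc36a1, whose products sit in the apical membrane of absorptive cells, and Slc7a7 and Slc7a8, whose products sit in the basolateral membrane. They are 10 of the 24421 genes counted, and all 10 were among the 13429 genes that passed the filter on low counts. Epithelial cells released with EDTA from the jejunum and ileum of unmodified C57BL6/J mice were analysed by bulk RNA sequencing at postnatal day 6 (P6, suckling) and postnatal day 36 (P36, after weaning). Each age had 4 mice, 2 female and 2 male, and each mouse gave 1 jejunal and 1 ileal library, so that the 16 libraries form 4 groups of 4: P6 jejunum, P6 ileum, P36 jejunum and P36 ileum. No allele or drug differed between the groups. The mice were suckling at P6 and weaned at P36, and the effects of age, diet and litter cannot be told apart. Replicate numbers below name the mouse, so that replicate 1 of the jejunum and replicate 1 of the ileum at one age are the same animal.

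Dietary protein reaches the enterocyte as di- and tripeptides and as free amino acids. Peptides enter with protons through PEPT1, the product of Slc15a1, while free amino acids enter through several carriers that overlap in what they accept: B0AT1 (Slc6a19) for neutral amino acids, an imino acid carrier (Slc6a20a) for proline, the Slc7a9 and Slc3a1 heterodimer for cystine and cationic amino acids, EAAT3 (Slc1a1) for glutamate and aspartate, ATB0,+ (Slc6a14) for neutral and cationic amino acids, and PAT1 (Slc36a1), a proton-coupled carrier of small amino acids. At the basolateral side, the light chains encoded by Slc7a7 and Slc7a8 pair with the heavy chain encoded by Slc3a2 and exchange cationic and neutral amino acids with the blood. In suckling mice much milk protein is instead taken up whole and degraded in lysosomes by vacuolated enterocytes of the ileum, a route that closes at weaning.

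In the mm10 annotation of the count files, the genes on the plus strand were Slc7a9 at chr7:35449092-35466034, Slc3a1 at chr17:85028347-85064241, Slc1a1 at chr19:28835166-28913960, Slc6a14 at chrX:21714900-21742357 and Slc36a1 at chr11:55204340-55236330. Those on the minus strand were Slc15a1 at chr14:121459621-121505254, Slc6a19 at chr13:73681157-73700695, Slc6a20a at chr9:123636907-123678832, Slc7a7 at chr14:54369442-54417702 and Slc7a8 at chr14:54722215-54781886. Counts were taken over exons, and no exon of these genes overlapped another gene's exon on the same strand.

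Total counts per library ranged from 12159237 to 25947276. Levels are given as CPM, the count of a gene scaled to a fixed library total, with totals corrected by the trimmed mean of M values (TMM), as mean ± SD over 4 libraries unless single libraries are listed, and levels of different genes are compared only after division by exonic length (CPM per kb). Differences were tested with edgeR's quasi-likelihood test fitted to all 16 libraries, adjusted over the 13429 genes by the Benjamini-Hochberg method, and a gene passed where the adjusted p was below 0.05. The regional labels matched their markers. Gata4, a jejunal transcription factor, lay between 155 and 193 CPM in the 8 jejunal libraries and between 0.735 and 34.7 CPM in the 8 ileal libraries, while the summed ileal markers Fabp6 and Slc10a2 lay between 3884 and 9674 CPM in the P36 ileum and at or below 8.91 CPM in the P36 jejunum. At P6 these ileal markers were low in both regions, at 6.38 to 79.0 CPM in the ileum and at most 0.893 CPM in the jejunum. Several ileal libraries stood apart in their cell markers. In the P36 ileum the sum of 6 enterocyte markers (Alpi, Anpep, Apoa1, Apoa4, Fabp2 and Vil1) was 31195, 12003, 4637 and 14041 CPM in replicates 1 to 4, against 29745 to 39675 CPM in the P36 jejunum. Alpi, Apoa1 and Apoa4 were each lower in every P36 ileal library than in any P36 jejunal one, whereas Anpep, Fabp2 and Vil1 overlapped. The summed epithelial markers (Cdh1, Epcam, Krt8, Krt20 and Vil1) were not lower in the P36 ileum, at 10777 to 15670 CPM against 10358 to 11827 CPM in the P36 jejunum. In the P6 ileum, replicate 4 had the lowest sum of 5 suckling enterocyte markers (Ass1, Fcgrt, Lct, Mamdc4 and Prdm1), at 3150 CPM against 10061 to 11807 CPM in the others. That sum followed Mamdc4 (1189 CPM in replicate 4, 7876 to 10139 CPM in the others) and Fcgrt (326 CPM, against 1033 to 1461 CPM), whereas Lct (1245 CPM, against 367 to 667 CPM) and Prdm1 (391 CPM, against 259 to 290 CPM) were highest in replicate 4 and Ass1 was under 0.2 CPM in each. Replicate 4 also had the lowest sums of epithelial (3661 CPM, against 5216 to 5717 CPM in the others), enterocyte (10163, against 17834 to 21605) and goblet markers (1333, against 3065 to 3423). Its sum of stem and cycling cell markers was the highest (678 CPM, against 291 to 441 CPM). Single genes of these lists went the other way, with Cdh1 and Fabp2 highest and Ascl2 lowest in replicate 4. In the same group replicate 2 alone carried smooth muscle (198 CPM summed) and fibroblast (239 CPM summed) markers above the 2.89 and 42.2 CPM reached by the other 3. Summed immune markers were 179 to 1369 CPM in the 8 libraries at P36 and 4.19 to 40.6 CPM in the 8 at P6. Most of the sum at P36 was Cd74, at 160 to 1364 CPM, against 2.63 to 31.7 CPM at P6. Ptprc, at 1.94 to 25.5 CPM at P36 and 0.567 to 8.09 CPM at P6, overlapped between the ages. So did the rest of that list, Cd3e, Cd3g, Cd79a and Lyz2. Goblet cell markers summed to 9732 to 18397 CPM at P36 and 1333 to 3423 CPM at P6, and Paneth cell markers to 4204 to 14617 CPM and 23.0 to 806 CPM. Replicate 3 of the P36 ileum had the highest Paneth sum (14617 CPM, against 5245 to 7960 CPM in the other 3) and the highest sum of stem and cycling cell markers (1495 CPM, against 695 to 1193 CPM). In bulk samples, fewer cells of a type and less RNA per cell cannot be told apart.

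The 4 sequences below are the 250 bases before the transcription start of 2 pairs of these genes, shown because the results set these genes side by side: Slc3a1 and Slc7a9, which encode the chains of a single transporter, and Slc36a1 and Slc7a8, which were both higher in the P36 jejunum than in the P36 ileum. The sequences are from RefSeq, build GRCm38.p6, written 5′ to 3′ on the strand of the gene. Capitals mark every match, on either strand, to letters taken to stand for 5 elements: CAAAGTCCA for the nuclear receptor HNF4, GTTAAT for part of an HNF1 site, AGATAA for GATA factors, TTTATNG for CDX factors, and TATAAA for a TATA box.
Slc3a1, chr17:85028097-85028346, plus strand: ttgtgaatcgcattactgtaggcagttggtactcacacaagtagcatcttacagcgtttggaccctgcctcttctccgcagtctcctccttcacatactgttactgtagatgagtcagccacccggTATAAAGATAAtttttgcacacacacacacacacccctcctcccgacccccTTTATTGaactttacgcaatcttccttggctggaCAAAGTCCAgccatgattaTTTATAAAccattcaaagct
Slc7a9, chr7:35448842-35449091, plus strand: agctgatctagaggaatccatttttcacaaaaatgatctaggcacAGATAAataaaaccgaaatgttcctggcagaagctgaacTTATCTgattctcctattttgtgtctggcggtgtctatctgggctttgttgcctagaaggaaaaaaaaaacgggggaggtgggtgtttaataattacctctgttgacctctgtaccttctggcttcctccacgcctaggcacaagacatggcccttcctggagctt
Slc36a1, chr11:55204090-55204339, plus strand: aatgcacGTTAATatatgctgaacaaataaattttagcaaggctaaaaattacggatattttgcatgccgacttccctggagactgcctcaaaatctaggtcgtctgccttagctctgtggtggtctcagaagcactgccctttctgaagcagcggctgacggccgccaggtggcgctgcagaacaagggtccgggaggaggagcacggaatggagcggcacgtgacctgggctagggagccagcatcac
Slc7a8, chr14:54781887-54782136, minus strand: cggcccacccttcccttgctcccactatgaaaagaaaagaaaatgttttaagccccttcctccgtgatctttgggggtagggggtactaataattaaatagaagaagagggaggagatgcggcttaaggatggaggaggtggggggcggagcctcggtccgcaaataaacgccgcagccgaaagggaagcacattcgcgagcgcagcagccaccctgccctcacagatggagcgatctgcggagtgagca
The Slc3a1 window held the HNF4 letters 39 to 31 bases before the start, the CDX letters at 73 to 67, and GATA letters at 119 to 114 that overlapped a TATAAA by 1 base. It also held 2 overlapping TATAAA matches on opposite strands between 20 and 13 bases before the start. The Slc7a9 window held 2 GATA matches, at 205 to 200 and at 166 to 161 bases before the start. Slc36a1 held 1 match to GTTAAT at 243 to 238 and Slc7a8 held none of the letters searched. Among 32817 windows of the same length in RefSeq, 0.384% held CAAAGTCCA, 6.44% GTTAAT, 9.99% AGATAA, 9.81% TTTATNG and 12.4% TATAAA. Of the 8 genes whose RefSeq start was the start used in the count files, Slc3a1 alone held the HNF4, CDX or TATA box letters. The GATA letters were in 3 of the 8 (Slc7a9, Slc3a1 and Slc7a7) and the HNF1 letters in 2 (Slc6a20a and Slc36a1). The RefSeq starts of Slc6a19 and Slc1a1 differed from those in the count files, and their windows were not searched. A match is a description of these letters, and binding was not measured.

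**Figure D1:**
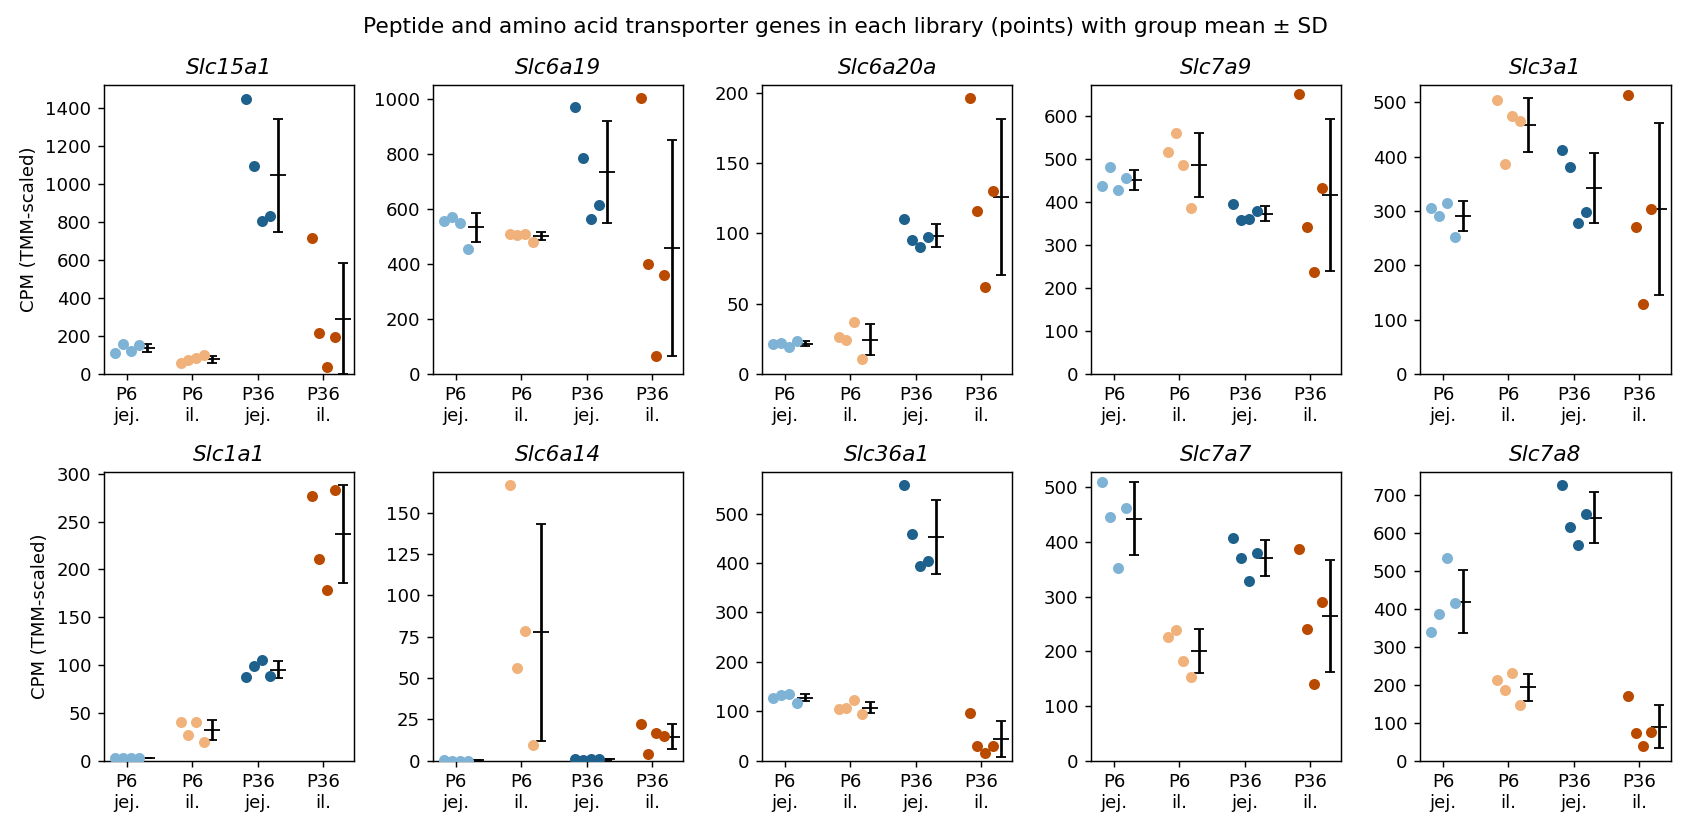
Level of each of the 10 transporter genes (vertical axis, TMM-scaled CPM on a linear scale that differs between panels) in the 4 libraries of each group (points in order of replicate), with the group mean ± SD as a black bar whose lower arm is cut at 0. Slc15a1 and Slc36a1 were highest in the P36 jejunum, Slc1a1 in the P36 ileum and Slc6a14 in the P6 ileum, and the SD was largest in the P36 ileum for Slc6a19 (394 CPM) and was 299 CPM in the P36 jejunum and 293 CPM in the P36 ileum for Slc15a1.

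Per unit length, Slc7a9 and Slc6a19 were the most abundant of these transcripts in 3 of the 4 groups, and Slc15a1 took the first place in the P36 jejunum. In the P6 jejunum the order was Slc7a9 (227 ± 11.7 CPM per kb), Slc6a19 (219 ± 21.5), Slc7a7 (177 ± 26.5), Slc3a1 (126 ± 11.8), Slc7a8 (104 ± 20.6), Slc15a1 (43.3 ± 7.08), Slc36a1 (24.2 ± 1.43), Slc6a20a (11.3 ± 0.921) and Slc1a1 (0.747 ± 0.0646), with Slc6a14 last at 0.0194 ± 0.0219. Among neighbours in that order, Slc7a9 and Slc6a19, Slc6a19 and Slc7a7, and Slc3a1 and Slc7a8 lay within their spread. In the P6 ileum, Slc7a9 (245 ± 37.6 CPM per kb), Slc6a19 (206 ± 5.84) and Slc3a1 (199 ± 21.6) led, each within the spread of the next, followed by Slc7a7 (79.8 ± 15.9) and Slc7a8 (47.9 ± 8.87). Slc15a1 (24.8 ± 5.96), Slc6a14 (22.6 ± 19.2) and Slc36a1 (20.3 ± 2.08) were next in the P6 ileum and lay within their spread, and Slc6a20a (12.8 ± 5.78) and Slc1a1 (8.61 ± 2.81) closed the order, each overlapping its neighbour.
In the P36 jejunum, Slc15a1 (334 ± 95.8 CPM per kb) and Slc6a19 (301 ± 75.6) stood above Slc7a9 (188 ± 8.68), Slc7a8 (158 ± 16.6), Slc7a7 (148 ± 13.1) and Slc3a1 (148 ± 27.97). Both the leading pair and the last 3 of these lay within their spread. Slc36a1 (86.0 ± 14.2), Slc6a20a (51.9 ± 4.39), Slc1a1 (25.7 ± 2.29) and Slc6a14 (0.201 ± 0.0720) followed without overlap of mean ± SD. In the P36 ileum the spread was so wide that the first 7 genes, from Slc7a9 (209 ± 88.7) through Slc6a19 (188 ± 162), Slc3a1 (132 ± 68.8), Slc7a7 (106 ± 41.0), Slc15a1 (93.1 ± 93.9) and Slc6a20a (66.5 ± 29.2) to Slc1a1 (63.9 ± 13.8), each overlapped the next. Slc7a8 (22.1 ± 14.2), Slc36a1 (8.14 ± 6.90) and Slc6a14 (4.20 ± 2.21) were the lowest there and also overlapped in turn.

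The first comparison asks whether the transporter genes differed between jejunum and ileum while the pups still suckled. At P6, 2 of the 10 genes passed as higher in the jejunum (Slc7a7 and Slc7a8) and 2 as higher in the ileum (Slc1a1 and Slc6a14), where 11.1% and 14.8% of all tested genes did. Both basolateral genes were thus higher in the jejunum. The 2 genes higher in the ileum were both apical, as are all of the 10 genes but Slc7a7 and Slc7a8. The 2 ileal genes also exceeded an absolute log2 fold change of 2, the size the study required, as did 6.5% of all tested genes. The median log2 difference of the 10 genes was -0.01, against -0.05 over all tested genes.

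Slc7a7, the light chain that releases cationic amino acids to the blood, had 510, 445, 352 and 462 CPM in the P6 jejunum and 225, 240, 182 and 153 CPM in the P6 ileum. All jejunal libraries lay above all ileal ones, by a log2 fold change of 1.15 ± 0.24 (SE, edgeR adjusted p = 0.00244). Slc7a8, the exchanger of neutral amino acids, had 338, 386, 533 and 415 CPM in the P6 jejunum and 211, 186, 229 and 147 CPM in the P6 ileum, again without overlap (log2 fold change 1.11 ± 0.32, edgeR adjusted p = 0.0188). Without P6 jejunum replicate 3, the highest library, the Slc7a8 difference was 0.98 and no longer passed (edgeR adjusted p = 0.0549). Their heavy chain partner Slc3a2 was also higher in the P6 jejunum, at 437 ± 18.5 against 256 ± 30.5 CPM (log2 fold change 0.77 ± 0.22, edgeR adjusted p = 0.0191).

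Slc1a1, the glutamate and aspartate carrier, was nearly silent in the P6 jejunum, at 2.53, 2.86, 2.63 and 3.06 CPM, and reached 40.6, 26.97, 40.5 and 19.6 CPM in the P6 ileum. Every ileal library lay several times above every jejunal one, by a log2 difference of -3.52 ± 0.24 for jejunum against ileum (11.5-fold, edgeR adjusted p = 5.27e-08). Slc6a14, the broad carrier of neutral and cationic amino acids, gave 4, 1, 0 and 1 counts in the 4 libraries of the P6 jejunum, 6 in all, and 167, 55.9, 78.4 and 9.66 CPM in the P6 ileum. The groups did not overlap (edgeR adjusted p = 3.47e-06), but the ileal libraries spread widely and the fitted log2 difference of -9.99 ± 1.01 rests on the prior count used for near-empty libraries. Leaving out P6 jejunum replicate 1, which held 4 of the 6 counts, moved it to -10.98, and leaving out P6 ileum replicate 1, the highest, moved it to -9.31. The ileal library lowest in Slc1a1 and Slc6a14 was replicate 4, which was also the lowest in Mamdc4 and Fcgrt and the highest in Lct and Prdm1. It had the lowest epithelial, enterocyte and goblet marker sums of its group and the highest stem and cycling sum. The part of these markers in the values was not tested.

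The other apical genes did not pass between regions at P6. Slc3a1, the heavy chain of the cystine carrier, had 305, 290, 314 and 252 CPM in the P6 jejunum and 504, 387, 475 and 465 CPM in the P6 ileum. Its groups did not overlap, yet the log2 difference of -0.66 ± 0.28 had an edgeR adjusted p of 0.103, and it passed in the fit that blocked on mouse (-0.66, edgeR adjusted p = 0.0459), in a fit to the 8 libraries at P6 (-0.66, 0.00835) and with scaling by library totals alone (-0.94, 0.00879). Slc15a1 had 112, 155, 120 and 153 CPM in the P6 jejunum and 55.9, 70.9, 83.1 and 99.7 CPM in the P6 ileum. Here too the groups did not overlap, but with the spread shared across all 16 libraries the log2 difference of 0.80 ± 0.54 did not pass (edgeR adjusted p = 0.297), whereas a fit to the 8 libraries at P6 alone gave 0.80 with an adjusted p of 0.0178. Slc6a19 (533 ± 52.5 against 502 ± 14.2 CPM), Slc7a9 (450 ± 23.2 against 486 ± 74.7 CPM), Slc36a1 (128 ± 7.53 against 107 ± 11.0 CPM) and Slc6a20a (21.4 ± 1.74 against 24.3 ± 11.0 CPM) overlapped between jejunum and ileum. The 95% intervals of their log2 differences ran from -0.93 to 1.10, from -0.59 to 0.37, from -0.53 to 1.04 and from -0.87 to 0.50, so that a failure to pass does not show equal levels.

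The same regional comparison was then made after weaning. At P36, 3 genes passed as higher in the jejunum (Slc15a1, Slc36a1 and Slc7a8) and 2 as higher in the ileum (again Slc1a1 and Slc6a14), where 8.3% and 7.8% of all tested genes did. Of these, Slc36a1, Slc7a8 and Slc6a14 exceeded an absolute log2 fold change of 2, against 3.6% of all tested genes. The median log2 difference of the 10 genes was 0.33, against -0.04 over all tested genes.

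Slc36a1, the proton-coupled carrier of small amino acids, had 558, 459, 395 and 403 CPM in the P36 jejunum, against 96.7, 29.4, 16.2 and 29.4 CPM in the P36 ileum. The lowest jejunal library was several times the highest ileal one, and the log2 fold change was 3.40 ± 0.40 (10.6-fold, edgeR adjusted p = 3.25e-05). It was 4.18 without P36 ileum replicate 1, the highest ileal library. Slc7a8 showed the same order, with 725, 615, 567 and 648 CPM in the P36 jejunum, against 171, 73.3, 37.7 and 75.0 CPM in the P36 ileum (log2 fold change 2.84 ± 0.34, 7.16-fold, edgeR adjusted p = 3.75e-05). Slc3a2 was again higher in the jejunum beside it, at 500 ± 48.0 against 179 ± 76.7 CPM (log2 fold change 1.48 ± 0.23, edgeR adjusted p = 0.000328).

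Slc15a1, the peptide transporter, had 1448, 1092, 806 and 829 CPM in the P36 jejunum, against 714, 214, 38.1 and 196 CPM in the P36 ileum. The groups did not overlap, but the ileal libraries differed 18.7-fold among themselves, and the log2 fold change of 1.84 ± 0.55 passed only just (edgeR adjusted p = 0.0316). The call was lost without P36 jejunum replicate 1 (1.64, edgeR adjusted p = 0.0927), P36 jejunum replicate 2 (1.82, 0.0627), P36 ileum replicate 2 (1.74, 0.0901) or P36 ileum replicate 4 (1.69, 0.0927), and in a fit to the 8 libraries at P36 (1.85, 0.0816). Without P36 ileum replicate 1, the highest ileal library, the difference was 2.80 (edgeR adjusted p = 0.00058).

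Slc1a1 remained higher in the ileum, with 276, 210, 178 and 283 CPM against 88.0, 99.0, 105 and 88.5 CPM in the P36 jejunum. The groups did not overlap and the log2 difference was -1.31 ± 0.21 (2.49-fold, edgeR adjusted p = 0.000408). Slc6a14 had 21.9, 3.91, 16.8 and 15.0 CPM in the P36 ileum, and 0.765, 0.353, 0.943 and 0.693 CPM in the P36 jejunum (log2 difference -4.38 ± 0.75, edgeR adjusted p = 0.000767). Neither gene ranked the P36 ileal libraries as the enterocyte markers did: replicate 1 was not the highest library for Slc1a1 and replicate 3 was not the lowest for Slc6a14.

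Slc6a19, the main carrier of neutral amino acids, had 972, 786, 565 and 617 CPM in the P36 jejunum, against 1005, 402, 64.7 and 361 CPM in the P36 ileum. The single highest and the single lowest library of all 8 were both ileal, and the log2 difference of 0.68 ± 0.48 did not pass (edgeR adjusted p = 0.39). Without P36 ileum replicate 1 it was 1.41 and passed (edgeR adjusted p = 0.0275). Slc7a7 was 371 ± 32.9 CPM in the P36 jejunum against 265 ± 103 CPM (log2 difference 0.49 ± 0.24, edgeR adjusted p = 0.192) and passed only without P36 ileum replicate 1 (0.73, 0.0347). Slc6a20a (98.2 ± 8.32 against 126 ± 55.3 CPM), Slc7a9 (372 ± 17.2 against 415 ± 176 CPM) and Slc3a1 (342 ± 64.5 against 303 ± 159 CPM) overlapped between regions and did not pass, with 95% intervals of the log2 difference from -1.03 to 0.32, from -0.64 to 0.32 and from -0.43 to 0.77.

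**Figure D2:**
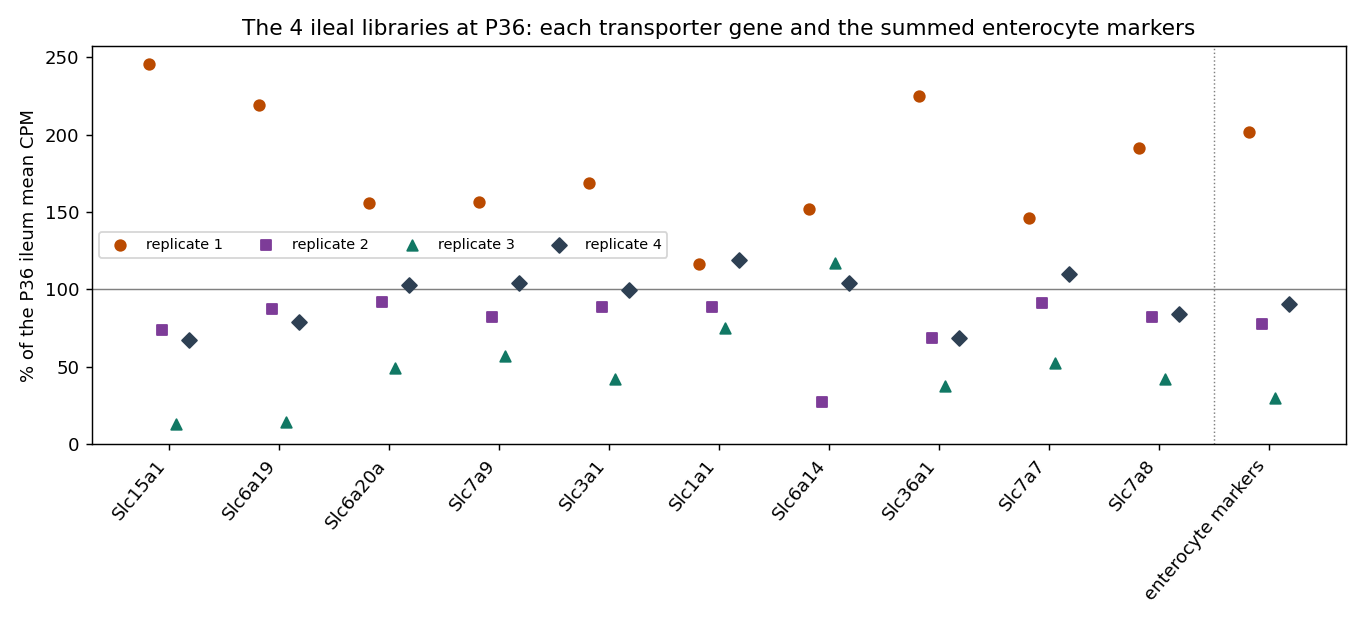
Each of the 4 ileal libraries at P36 as a percentage of that group's mean CPM (vertical axis, linear), for the 10 transporter genes and, right of the dotted line, the sum of 6 enterocyte markers, with a symbol for each replicate. Replicate 1 was highest for every gene but Slc1a1 and replicate 3 lowest for every gene but Slc6a14, and the highest to lowest ratio ran from 1.59 for Slc1a1 to 18.7 for Slc15a1.

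The 4 ileal libraries at P36 ranked 8 of the 10 genes with replicate 1 highest and replicate 3 lowest, which was also how they ranked the enterocyte markers, with a ratio of 6.73 between those libraries. The share of all tested genes with this order was not counted, so the order is not shown to be particular to these genes. The ratio of highest to lowest library was 18.7 for Slc15a1 and 15.5 for Slc6a19, above that of the markers. It was 5.98 for Slc36a1, 4.53 for Slc7a8, 3.99 for Slc3a1, 3.18 for Slc6a20a, 2.77 for Slc7a7 and 2.74 for Slc7a9, below it. For Slc1a1 the ratio was 1.59 and for Slc6a14 it was 5.60, with replicate 2 the lowest. Replicate 1 also had the highest Gata4 of this group (31.6 CPM, against 5.56, 0.735 and 2.295 CPM in replicates 2 to 4) and the highest sucrase-isomaltase, Sis (2967 CPM, against 1441, 772 and 892 CPM), a brush border enzyme of weaned enterocytes. The part of these marker differences in the transporter values was not tested.

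**Figure D3:**
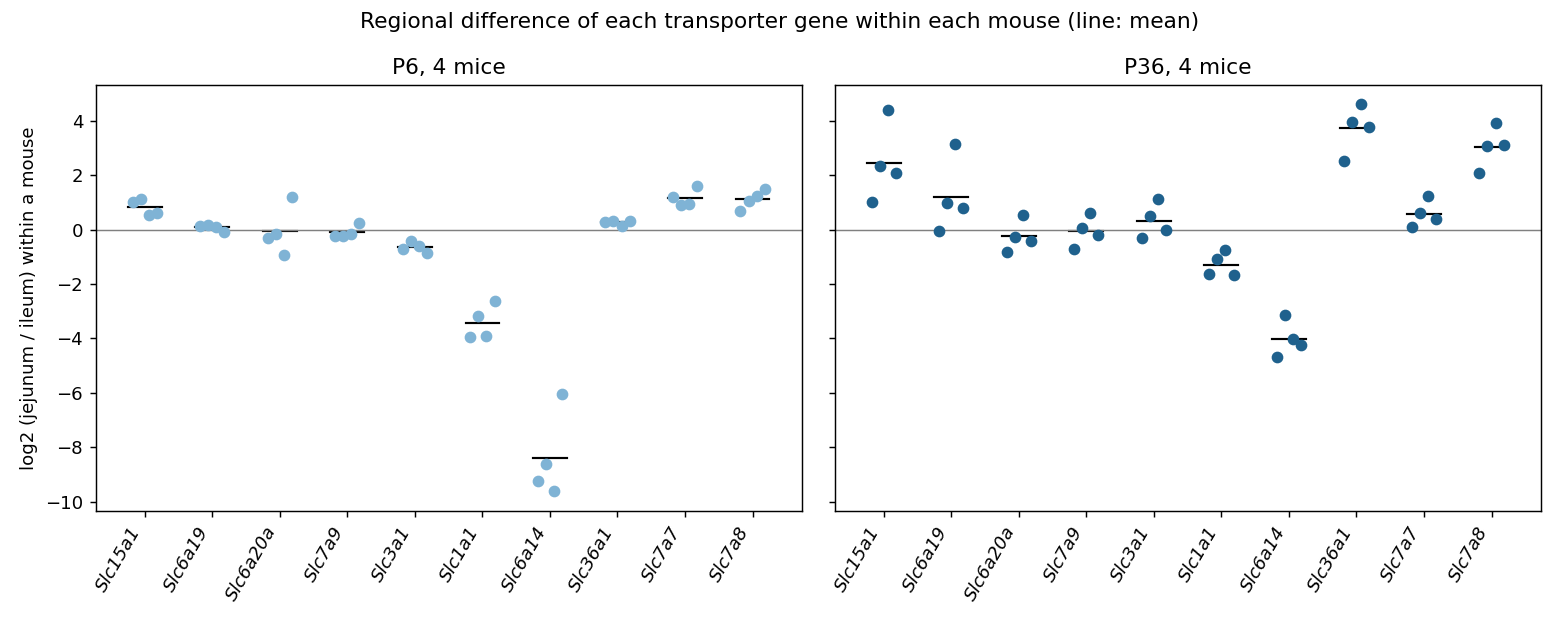
log2 ratio of jejunum to ileum within each mouse (vertical axis, log2 CPM with a prior count of 2) for the 10 genes at P6 (left) and P36 (right), with 1 point per mouse and a line at the mean of 4. The 4 mice lay on the same side of 0 at both ages for Slc15a1, Slc36a1, Slc7a7 and Slc7a8 (jejunum higher) and for Slc1a1 and Slc6a14 (ileum higher).

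The regions were also compared within each mouse, which uses the same libraries as the groups and is not a separate support. The jejunum was higher in 4 of 4 mice at both ages for Slc15a1, with log2 ratios of 0.53 to 1.13 at P6 and 1.02 to 4.398 at P36. It was higher in 4 of 4 mice at both ages for Slc36a1 too, by a narrow 0.14 to 0.32 at P6 and by 2.53 to 4.60 at P36, ranges that did not meet. Slc7a8 moved from 0.68 to 1.499 at P6 to between 2.08 and 3.90 at P36, while Slc7a7 moved from 0.89 to 1.598 at P6 to between 0.08 and 1.23 at P36. The ileum was higher in 4 of 4 mice at both ages for Slc1a1, with log2 ratios from -3.95 to -2.64 at P6 and from -1.68 to -0.76 at P36, and for Slc6a14, from -9.62 to -6.05 and from -4.67 to -3.15. Slc3a1 was higher in the ileum of 4 of 4 mice at P6 (-0.88 to -0.42) and of 2 of 4 mice at P36. Slc6a19, Slc6a20a and Slc7a9 had mice on both sides of 0 at each age.

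The test of whether the regional difference itself changed with age took the log2 difference at P6 minus that at P36. It was below 0 and passed for 4 genes (Slc1a1, Slc6a14, Slc36a1 and Slc7a8), where 5.01% of all tested genes did, and passed above 0 for none of the 10, where 3.68% of all tested genes did. At an unadjusted p under 0.05, and with DESeq2, the count above 0 was also 0. For Slc36a1 the change was -3.15 ± 0.53 (edgeR adjusted p = 0.00143), from a difference that did not pass at P6 to a 10.6-fold higher level in the jejunum at P36. Without P36 ileum replicate 1 it was -3.92. For Slc7a8 it was -1.73 ± 0.46 (edgeR adjusted p = 0.0274), since the jejunal excess grew from 2.16-fold to 7.16-fold. The Slc7a8 call was lost in 7 of the 16 fits that left out 1 library, with log2 values from -1.63 to -1.72 and edgeR adjusted p between 0.0504 and 0.0626: those without P6 jejunum replicates 1, 2 or 4, P36 jejunum replicates 1 or 4, and P36 ileum replicates 2 or 4. For Slc1a1 (-2.21 ± 0.30, edgeR adjusted p = 0.000282) and Slc6a14 (-5.61 ± 1.31, edgeR adjusted p = 0.0134) the negative value reflected an ileal excess that was larger as a ratio at P6 than at P36. In CPM the gap of Slc1a1 was wider at P36, with means of 95.2 in the jejunum and 237 in the ileum, against 2.77 and 31.9 at P6. The Slc6a14 value was -6.60 without P6 jejunum replicate 1 and -4.94 without P6 ileum replicate 1. Slc15a1 (-1.04 ± 0.76, edgeR adjusted p = 0.439) did not pass except without P36 ileum replicate 1 (-1.99, 0.0396), and Slc3a1 (-0.83 ± 0.40, edgeR adjusted p = 0.234) did not pass except without the same library (-1.20, 0.0295). The change for Slc7a7, 0.66 ± 0.34 in the opposite direction, did not pass (edgeR adjusted p = 0.265) except with 3 ileal libraries left out together (P6 replicates 2 and 4, P36 replicate 3), where it was 0.80 (edgeR adjusted p = 0.0472).

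**Figure D4:**
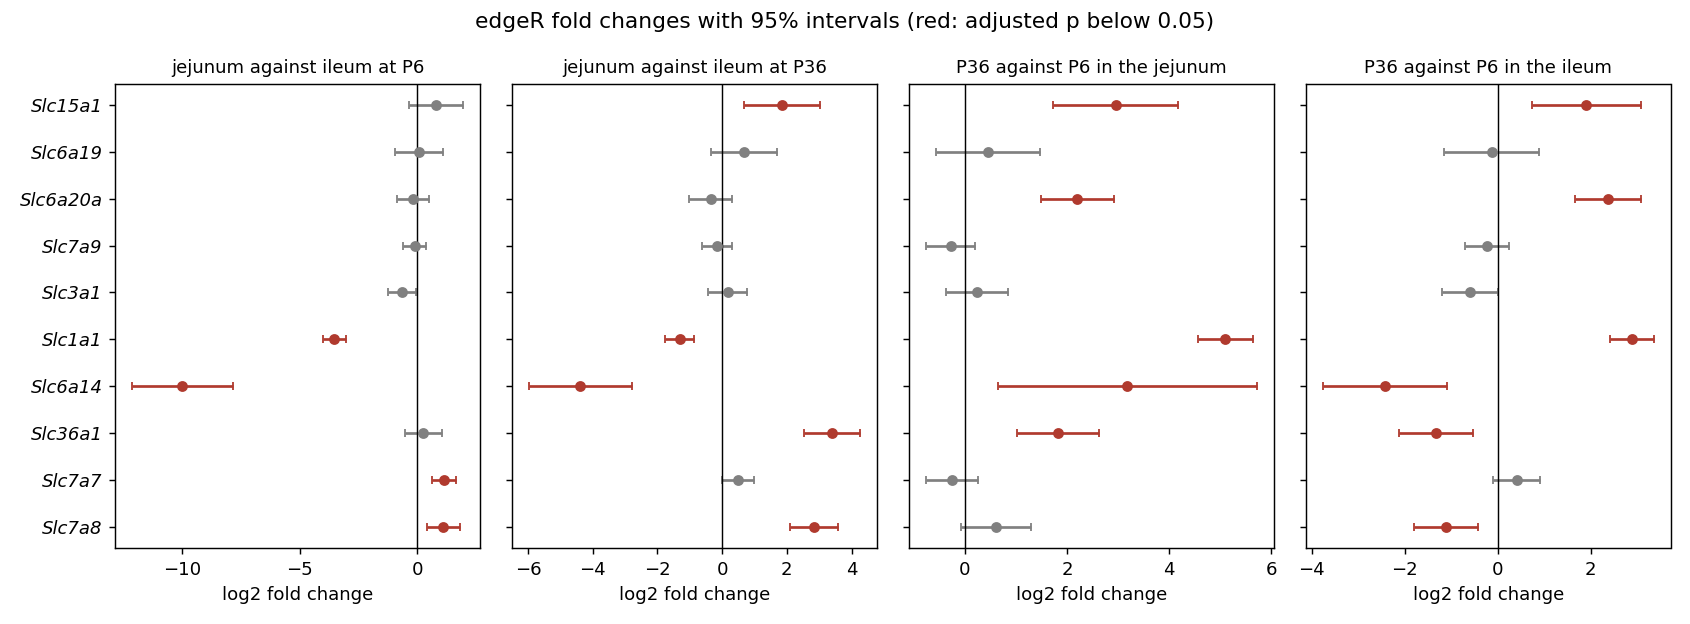
log2 fold change of each gene (horizontal axis, scale differing between panels) with its 95% interval in the regional comparisons at P6 and P36 and in the age comparisons in the jejunum and ileum, from the edgeR fit to 16 libraries, with adjusted p below 0.05 in red. Slc1a1 passed in all 4 comparisons and Slc6a14 too, while Slc6a19, Slc7a9 and Slc3a1 passed in none.

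The age comparison in the jejunum found only higher levels after weaning among the genes that passed. From P6 to P36, 5 of the 10 genes rose (Slc15a1, Slc6a20a, Slc1a1, Slc6a14 and Slc36a1), where 24.7% of all tested genes did, and none fell, where 26.9% of all tested genes did. The count that fell was also 0 at an unadjusted p under 0.05 and with DESeq2. Of the 5, all but Slc36a1 exceeded an absolute log2 fold change of 2, as did 16.4% of all tested genes. All 5 are apical, as are all of the 10 genes but Slc7a7 and Slc7a8. The median log2 fold change of the 10 genes was 1.22, against -0.01 over all tested genes. The goblet and Paneth cell marker sums were also higher in the libraries at P36, as was the immune sum through Cd74. The part of these markers in the age differences of either region was not tested.

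Slc15a1 rose from 135 ± 22.1 to 1044 ± 299 CPM in the jejunum, a log2 fold change of 2.95 ± 0.57 (7.73-fold, edgeR adjusted p = 0.000455), and its lowest P36 library (806 CPM) lay far above its highest P6 library (155 CPM). Slc1a1 rose most steeply, from 2.77 ± 0.24 to 95.2 ± 8.47 CPM (log2 fold change 5.10 ± 0.25, 34.3-fold, edgeR adjusted p = 1.76e-10). Slc6a20a, the proline carrier, had 21.1, 21.6, 19.2 and 23.5 CPM at P6 and 110, 95.2, 90.3 and 97.6 CPM at P36 in the jejunum, with no overlap (log2 fold change 2.20 ± 0.33, edgeR adjusted p = 4.52e-05). Slc36a1 rose from 128 ± 7.53 to 454 ± 74.8 CPM (log2 fold change 1.83 ± 0.38, edgeR adjusted p = 0.000787). Slc6a14 passed as higher at P36 (log2 fold change 3.18 ± 1.19, edgeR adjusted p = 0.0353), but both groups were near the floor, at 6 counts in all at P6 and 55 at P36. Its call was lost in 6 of the 8 fits that left out 1 library: those without P6 jejunum replicate 2, 3 or 4 (log2 3.02, 2.84 and 3.05, edgeR adjusted p = 0.077, 0.0787 and 0.0719) and without P36 jejunum replicate 1, 3 or 4 (3.13, 3.05 and 3.18, edgeR adjusted p = 0.0582, 0.0677 and 0.0532). Without P6 jejunum replicate 1 it was 4.17.

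The 5 remaining genes did not pass with age in the jejunum. Slc7a8 had no overlap between P6 (338 to 533 CPM) and P36 (567 to 725 CPM), yet its log2 difference of 0.61 ± 0.32 did not pass (edgeR adjusted p = 0.124). Slc7a9 was also without overlap, in the other direction, at 428 to 480 CPM at P6 and 357 to 394 CPM at P36 (-0.27 ± 0.23, edgeR adjusted p = 0.332). In a fit to the 8 jejunal libraries alone, where the ileal spread did not enter, Slc7a8 (edgeR adjusted p = 0.0023), Slc7a9 (0.00712) and Slc6a19 (0.0234) passed, with log2 values of 0.62, -0.26 and 0.47, and Slc6a14 was too low to be tested. Slc6a19 (533 ± 52.5 and 735 ± 184 CPM), Slc3a1 (290 ± 27.2 and 342 ± 64.5 CPM) and Slc7a7 (442 ± 66.3 and 371 ± 32.9 CPM) overlapped between the ages.

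In the ileum, the age comparison went both ways. From P6 to P36, 3 genes rose (Slc15a1, Slc6a20a and Slc1a1), where 25.5% of all tested genes did, and 3 fell (Slc6a14, Slc36a1 and Slc7a8), where 30.1% of all tested genes did. Slc6a20a, Slc1a1 and Slc6a14 exceeded an absolute log2 fold change of 2, as did 16.4% of all tested genes. The median log2 fold change was -0.18, against -0.03 over all tested genes. The jejunal and ileal age comparisons share no library, but they share the 8 mice.

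Slc1a1 rose from 31.9 ± 10.4 to 237 ± 51.1 CPM in the ileum (log2 fold change 2.89 ± 0.22, 7.42-fold, edgeR adjusted p = 2.5e-08) and Slc6a20a from 24.3 ± 11.0 to 126 ± 55.3 CPM (log2 fold change 2.37 ± 0.34, edgeR adjusted p = 2.11e-05), both without overlap. Slc15a1 rose from 77.4 ± 18.6 to 291 ± 293 CPM (log2 fold change 1.91 ± 0.55, edgeR adjusted p = 0.00801), but P36 ileum replicate 3, at 38.1 CPM, lay below every P6 ileal library, and without P36 ileum replicate 1 the difference was 0.96 and did not pass (edgeR adjusted p = 0.0632). Slc36a1 fell from 107 ± 11.0 to 42.9 ± 36.4 CPM (log2 fold change -1.32 ± 0.38, edgeR adjusted p = 0.00732). Its P36 ileum replicate 1, at 96.7 CPM, lay within the P6 range of 95.4 to 122 CPM, and without that library the change was -2.10. Slc7a8 fell from 193 ± 35.8 to 89.3 ± 57.1 CPM (log2 fold change -1.11 ± 0.32, edgeR adjusted p = 0.00831), with the same P36 library at 171 CPM inside the P6 range. Slc6a14 fell from 77.7 ± 65.9 to 14.4 ± 7.58 CPM (log2 fold change -2.43 ± 0.63, edgeR adjusted p = 0.0038), and its lowest P6 library, replicate 4 at 9.66 CPM, lay within the P36 range. Without P6 ileum replicate 1, the highest, the fall of Slc6a14 was -1.73.

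Slc6a19 (502 ± 14.2 and 458 ± 394 CPM), Slc7a9 (486 ± 74.7 and 415 ± 176 CPM), Slc3a1 (458 ± 49.8 and 303 ± 159 CPM) and Slc7a7 (200 ± 39.9 and 265 ± 103 CPM) did not pass with age in the ileum. Without P36 ileum replicate 1, Slc7a9 (-0.52, edgeR adjusted p = 0.0224) and Slc3a1 (-0.96, 0.00366) passed as lower at P36, and without P36 ileum replicate 3, Slc7a7 passed as higher (0.62, 0.0132). An alternative chosen after seeing the data left out together 3 of the ileal libraries that stood apart in their markers (P6 replicates 2 and 4, P36 replicate 3). P36 ileum replicate 1, the highest of its group in the enterocyte markers, was kept. The number of genes that passed in the ileum by age was then 7. It was 6 for the regions at P6, 6 for the regions at P36 and 5 for the change of the regional difference, where all libraries gave 6 for age in the ileum and 4, 5 and 4 for the others. The share of all tested genes that passed rose as well, from 55.7% to 58.3% for age in the ileum, from 25.9% to 32.4% for the regions at P6, from 16.1% to 27.3% for the regions at P36 and from 8.69% to 13.4% for the change. The calls gained were Slc3a1 (-0.78, edgeR adjusted p = 0.0171) and Slc6a20a (-0.58, 0.0293) by region at P6, Slc6a20a by region at P36 (-0.58, 0.0182), and Slc7a7 by age in the ileum (0.59, 0.02) and in the change.

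Slc7a9 and Slc3a1 encode the light and heavy chain of one cystine carrier, and the ratio of their counts per kb was followed within each library. It was 1.66, 1.92, 1.58 and 2.10 in the P6 jejunum and 1.19, 1.68, 1.19 and 0.961 in the P6 ileum. At P36 the jejunal values were 1.11, 1.09, 1.51 and 1.48, with ileal values of 1.47, 1.47, 2.15 and 1.66. The mean log2 ratio was 0.85 ± 0.19 in the P6 jejunum, 0.30 ± 0.33 in the P6 ileum, 0.36 ± 0.25 at P36 in the jejunum, with 0.74 ± 0.26 in the ileum. In two-sided exact permutation tests of 4 against 4 libraries, whose smallest possible p is 0.0286, jejunum and ileum differed by 0.56 at P6 (p = 0.0857, adjusted over the 4 comparisons 0.152) and by -0.38 at P36 (p = 0.171, adjusted 0.171). P36 and P6 differed by -0.49 for jejunal libraries (exact p = 0.0286, adjusted 0.114) and by 0.44 for ileal ones (exact p = 0.114, adjusted 0.152). The jejunal groups did not overlap by age, but no comparison passed after adjustment. With the other p-values as found, the smallest possible p gives the jejunal comparison an adjusted p of 0.114, so it could not have passed. A failure to pass here thus does not show equal ratios.

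**Figure D5:**
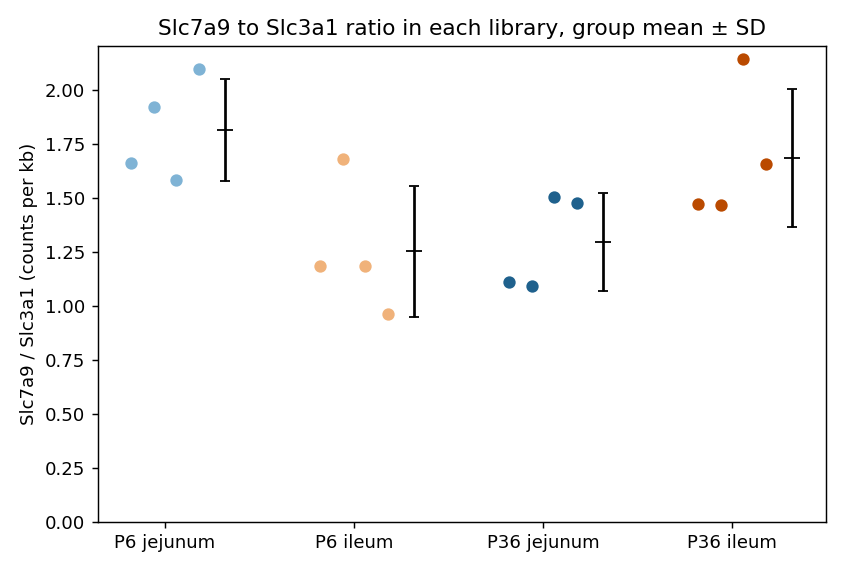
Ratio of Slc7a9 to Slc3a1 in counts per kb (vertical axis, linear from 0) in the 4 libraries of each group (points in order of replicate), with the group mean ± SD in black. The ratio lay between 0.961 and 2.15 in the 16 libraries, and only the P6 and P36 jejunum did not overlap among the groups compared.

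The likeness of 2 profiles was measured as the root mean square difference of their log2 CPM over the 16 libraries after each gene's mean was removed, as a description without a test. Among the 10 genes, Slc7a9 and Slc3a1 were the closest (0.33) and Slc36a1 and Slc7a8 next (0.48), while Slc6a14 and Slc15a1 were the most distant (4.31). The measure is small for any genes that vary little: the SD of log2 CPM over the 16 libraries was 0.32 for Slc7a9 and 0.48 for Slc3a1, about the distance between them, and 1.40 for Slc36a1 with 1.23 for Slc7a8, well above theirs. Over all tested genes, Slc7a8 lay nearest to Slc16a10 (0.40), a carrier of aromatic amino acids, and Slc36a1 nearest to Slc5a11 (0.43) and BC089597 (0.45), with Slc7a8 the third. Slc15a1 lay nearest to Slc47a1 (0.47), to Slc5a1 (0.51), the apical glucose transporter, and to Tm4sf5 (0.53). Slc1a1 lay nearest to Oxct1 (0.55), Slco3a1 (0.60) and Hk2 (0.61), and Slc6a20a to Efnb1 (0.29), Fcgbp (0.30) and Casz1 (0.30). Slc7a7, whose own SD was 0.56, lay nearest to Lpcat3 (0.15), an enzyme of phospholipid remodelling. Slc6a14 had no close match, with Fam124a the nearest at 1.47.

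Genes whose products work with these carriers were followed as a list of 5 found in the files, 4 of which were tested (Slc3a2, Slc9a3, Pdzk1 and Slc9a3r1). Of these, 2 passed as higher in the jejunum at P6 and at P36, where 11.1% and 8.3% of all tested genes did, with median differences of 0.82 and 1.18, and 0 passed as higher in the ileum, also at an unadjusted p under 0.05 and with DESeq2. Slc3a2 is given above. Slc9a3, the apical sodium-proton exchanger that restores the proton gradient used by PEPT1 and PAT1, was 159 ± 18.8 against 5.86 ± 1.02 CPM at P6 (log2 fold change 4.76 ± 0.52, edgeR adjusted p = 7.79e-06) and 128 ± 23.2 against 11.2 ± 12.2 CPM at P36 (log2 fold change 3.51 ± 0.49, edgeR adjusted p = 0.000139). The scaffold genes Pdzk1 and Slc9a3r1 did not pass (log2 differences 0.88 and 0.72 at P6, 0.89 and 0.44 at P36). No partner passed with age in the jejunum, at an unadjusted p under 0.05 or with DESeq2, and none passed with age in the ileum, where 1 higher and 1 lower reached an unadjusted p under 0.05 and 1 higher passed with DESeq2. Tmem27 was at most 1.08 CPM in any library and was not tested.

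Of 29 other amino acid carriers of the cell surface, 20 were tested. Between regions, 0 passed as higher in the jejunum and 5 as higher in the ileum at P6 (with 3 higher in the jejunum at an unadjusted p under 0.05 and 1 with DESeq2), and 4 and 3 at P36. Of all tested genes, 11.1% and 14.8% passed in those directions at P6 and 8.3% and 7.8% at P36. With age, 9 rose and 6 fell in the jejunum (median log2 fold change 0.34), where 24.7% and 26.9% of all tested genes did, and 9 rose and 5 fell in the ileum (median 0.42), where 25.5% and 30.1% did. Slc16a10 was higher in the P36 jejunum than the P36 ileum (403 ± 90.0 against 96.5 ± 74.7 CPM, log2 fold change 2.06 ± 0.38, edgeR adjusted p = 0.00143), as was Slc7a15 (200 ± 33.3 against 48.3 ± 57.4 CPM, 2.05 ± 0.67, edgeR adjusted p = 0.0475). Slc7a15 also rose with age from 5.80 ± 2.10 CPM in the jejunum (5.11 ± 0.77, edgeR adjusted p = 4.23e-05) and from 3.71 ± 0.50 CPM in the ileum (3.70 ± 0.73, edgeR adjusted p = 0.0005). Slc38a1 and Slc38a3, carriers of glutamine, fell with age in both regions, Slc38a1 from 345 ± 24.4 and 348 ± 49.2 CPM to 46.9 ± 2.88 and 59.4 ± 10.0 CPM in jejunum and ileum and Slc38a3 from 89.6 ± 77.5 and 122 ± 80.8 CPM to 0.291 ± 0.107 and 0.740 ± 0.257 CPM. Slc1a4 rose in both regions, by 2.32 ± 0.25 in the jejunum and by less in the ileum (edgeR adjusted p = 3.44e-05). Slc1a3 rose in the jejunum (2.74 ± 0.51) and did not pass in the ileum. Slc7a3 fell in both regions (-3.26 ± 0.66 in the jejunum, -4.59 ± 0.74 in the ileum). Slc7a11 rose in both (3.89 ± 0.75 in the jejunum, 2.34 ± 0.65 in the ileum). Each of Slc7a3, Slc7a11 and Slc1a3 stayed under 5 CPM.

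Most carriers that export amino acids and other products of digestion from lysosomes fell with age. Of 10 such genes 8 were tested, and 7 fell with age in each region, by a median of -2.23 in the jejunum, of -2.32 in the ileum, and 0 rose, also at an unadjusted p under 0.05 and with DESeq2. Of all tested genes, 26.9% fell in the jejunum and 30.1% in the ileum. Slc17a5, the lysosomal sialic acid carrier, fell from 1582 ± 544 to 28.7 ± 3.63 CPM in the jejunum (log2 fold change -5.78 ± 0.29, edgeR adjusted p = 2.3e-10) and from 2321 ± 553 to 32.4 ± 5.00 CPM in the ileum (-6.16 ± 0.30, edgeR adjusted p = 1.69e-10). Ctns, the cystine exporter, fell from 211 ± 20.3 to 30.3 ± 1.42 CPM and from 184 ± 31.2 to 19.6 ± 4.86 CPM, and Slc38a7 from 191 ± 16.2 to 13.4 ± 1.89 CPM and from 165 ± 53.1 to 13.3 ± 2.18 CPM. Pqlc2 fell too (log2 fold changes of -2.38 in the jejunum, -2.58 in the ileum), as did Slc36a4 (-2.08 and -1.90) and Mfsd1 (-1.05 and -2.06). Between regions, 0 of the 8 passed as higher in the jejunum and 3 as higher in the ileum at P6 (1 higher in the jejunum at an unadjusted p under 0.05, 0 with DESeq2), and 1 each way at P36, where 11.1% and 14.8% of all tested genes passed at P6 and 8.3% and 7.8% at P36. Slc36a4 was higher in the ileum at both ages (log2 differences of -1.66 and -1.84, edgeR adjusted p = 0.000172 and 0.000293), and Mfsd1 at P6 (-1.09, edgeR adjusted p = 2.66e-05).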

How the data were processed

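RNA from EDTA-released jejunal and ileal epithelium of 8 mice was sequenced by the submitters, each age with 4 mice. Per the processing notes, reads were trimmed with Trimmomatic 0.38 and aligned with STAR 2.5.3 to mm10. The deposited counts are whole, unnormalized paired reads per gene, made with featureCounts of Subread 1.6.3, reverse-stranded and over exons, per the file headers. Total counts per library were 12159237 to 25947276.

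Counts were normalized by TMM and tested with edgeR 4.0.16 (R 4.3.3) in one model of 4 groups, after filterByExpr kept 13429 of 24421 genes. DESeq2 1.42.0, other scalings and filters, a sex term, a mouse block and single libraries left out were alternatives. Both regions come from the same mouse, named in the titles: within-mouse correlations of deviations from the group means across genes were 0.157 to 0.391 at P6 and 0.240 to 0.347 at P36. The fit without the block was kept as the main one. The scripts were tested on simulated data. The members, lists and tests were chosen with earlier results of these data known. Besides the 10 members, the named genes are their measured partners (1 gene of that list is not reported here and was left out of its counts), from 2 other carrier lists at most 5 genes per comparison with adjusted p below 0.05 and absolute log2 fold change above 2, and the 3 tested genes nearest to a member in profile. Per-mouse ratios used a prior count of 2. The p-values of the main fit measure the spread between libraries within groups. They treat the jejunal and ileal library of a mouse as independent. The names of the P6 mice share a first part, L41800 for replicates 1 and 3 and L42150 for replicates 2 and 4. The titles do not say what it stands for, and the fit treats these mice as independent too. Promoter sequences are from RefSeq (GRCm38.p6).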

Additional observations from a re-analysis of the deposited data

Results flagged for a closer look

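Slc6a19 in the P6 ileum had 1 library away from the others, replicate 4, at 481 CPM against 507 to 511 CPM in replicates 1 to 3. Slc36a1 in the P36 ileum had 1 library away from the others, replicate 1, at 96.7 CPM against 16.2 to 29.4 CPM. Both gaps exceed Dixon's 95% critical value for 4 values, and chance flags about 1 in 20 such groups. The regional log2 difference changed between P6 and P36 by a test of the difference itself for Slc1a1 (-2.21), Slc6a14 (-5.61), Slc36a1 (-3.15) and Slc7a8 (-1.73), the value at P6 minus that at P36.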

How the results depend on the processing

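Of 50 differences (10 genes in 5 contrasts), 24 passed. Of these, 19 kept their direction and their side of the threshold under every alternative other than the fold rule. The 5 that did not are Slc15a1 by region at P36 and by age in the ileum, Slc7a8 by region at P6 and its change with age, and Slc6a14 by age in the jejunum, given in the report. None of the 24 reversed. With an absolute log2 fold change above 2 also required, 2 genes passed by region at P6, 3 by region at P36 and 3 by age in the ileum. Leaving out 1 library at a time gave 3 to 4, 4 to 7, 4 to 5, 6 to 7 and 3 to 6 genes that passed, for region at P6, region at P36, age in the jejunum, age in the ileum and the change of the regional difference.

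Differences that had not passed reversed as follows, and none passed after reversing. With library totals alone, Slc6a19 (-0.20) and Slc36a1 (-0.033) reversed by region at P6, and the change of the regional difference reversed for Slc6a20a (-0.018) and Slc7a9 (-0.14). This scaling moved the median of all genes by -0.29 for region at P6, -0.14 for region at P36 and -0.15 for the change, and took the share of calls higher in the jejunum from 42.9% to 17.97% at P6 and from 51.5% to 37.8% at P36, and that of positive changes from 42.3% to 24.2%. The replicate block on mouse reversed the change for Slc7a9 (-0.037), gave Slc3a1 by region at P6 a call (count 5 in place of 4) and changed no other call. With the 3 ileal libraries left out together, an alternative chosen after seeing the data, Slc3a1 by region at P36 (-0.072), Slc6a19 by age in the ileum (0.21) and the change for Slc6a20a (-0.0095) reversed. Leaving out single libraries gave -0.44 to 0.071 for Slc6a20a by region at P6, -0.35 to 0.14 for Slc7a9 and -0.084 to 0.55 for Slc3a1 by region at P36, -0.86 to 0.24 for Slc6a19 by age in the ileum, and -0.12 to 0.42 and -0.25 to 0.24 for the change of Slc6a20a and Slc7a9. The Slc7a9 to Slc3a1 log2 ratio ranged from 0.44 to 0.71, -0.46 to -0.26, -0.57 to -0.42 and 0.32 to 0.59 in the order of the contrasts above. It passed in none of its alternatives, and with so few libraries and the other p-values as found it could not have passed. Paired by mouse with sign flips, whose smallest p is 0.125, it had adjusted p of 0.167 at P6 and 0.125 at P36. The causes were not tested. Near 0 counts, as for Slc6a14 in the jejunum, depth limits the size of a difference.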
